A study of Mus musculus with 9 samples.

Results

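The cytochrome P450 enzymes of families 1 to 4 were followed across liver arrays of 3 groups of mice. The members are the 72 transcript clusters, of 22206 on the array (19505 distinct gene symbols), whose symbol begins with Cyp, a family number from 1 to 4 and a subfamily letter. The Cyp2b subfamily (5 clusters) and 3 pseudogenes were left out, and Cyp2ab1 was not matched by the pattern. Each member had 1 cluster. Subfamily 2c had 14 members, 3a and 4f had 9 each, 2d and 4a had 8 each, 2j had 7, 2a had 4 and 1a had 2, while 1b, 2e, 2f, 2g, 2r, 2s, 2t, 2u, 2w, 4b and 4x had 1 each.

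RNA from whole liver of male mice was hybridised to Clariom S mouse arrays, 1 array per sample and 3 per group. The first group was C57BL/6JHamSlc-ob/ob mice that received VE, an extract of Vigna umbellata (rice bean), 100 mg per kg of body weight, gavaged orally, for 42 days. The second was C57BL/6JHamSlc-ob/ob mice on vehicle, and the third was lean C57BL/6JHamSlc-+/+ mice on vehicle, called wild type. All mice were 6 weeks old when obtained, had 1 week of acclimatization and ate standard chow throughout. The ob/ob mutation removes functional leptin, the hormone of fat cells that limits food intake, from the whole animal, so these mice become obese with a fatty liver and are no model of a loss confined to the liver. No wild-type mice on VE were analysed here, so the extract was measured on the ob/ob background only.

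Cytochromes P450 are heme enzymes, most of them in the endoplasmic reticulum, that insert an oxygen atom into their substrate with electrons passed on by P450 oxidoreductase. Members of families 1 to 3 oxidise drugs, plant compounds, steroids and other small molecules in hepatocytes, and members of family 4 hydroxylate fatty acids and eicosanoids. Their genes are known targets of ligand-activated receptors: the aryl hydrocarbon receptor for Cyp1a, PXR and CAR for Cyp3a and several Cyp2 genes, and PPARα for Cyp4a10 and Cyp4a14. Many mouse members are also sex-biased in liver, under the control of the growth hormone rhythm.

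Most subfamilies lie in gene clusters made by duplication, and neighbours can be nearly the same in sequence. RefSeq (GRCm38.p6) gave a promoter window, 250 bases before to 50 after the annotated start, for 57 of the 72 members. Those of the 4 Cyp2a genes, of Cyp2c38 and Cyp2c39 and of Cyp1a2 are printed because these members carry most of the called differences below or stand next to one that does. Capitals mark matches to 5 short motifs: TATAAA on the sense strand, and on either strand AGGTCA (the hexamer bound by many nuclear receptors), GCGTG (the core bound by the aryl hydrocarbon receptor), TTCNNNGAA (the site of STAT5) and ATTGAT (the core bound by HNF6, the product of Onecut1). The windows lie at chr7:26306942-26307241 (+) for Cyp2a4, chr7:26835089-26835388 (+) for Cyp2a5, chr7:26939337-26939636 (-) for Cyp2a22 and chr7:27028840-27029139 (+) for Cyp2a12. Those of Cyp2c38 and Cyp2c39 lie at chr19:39463026-39463325 (-) and chr19:39347096-39347395 (+, 1 of 2 windows of that gene), and that of Cyp1a2 at chr9:57683606-57683905 (-).
Cyp2a4: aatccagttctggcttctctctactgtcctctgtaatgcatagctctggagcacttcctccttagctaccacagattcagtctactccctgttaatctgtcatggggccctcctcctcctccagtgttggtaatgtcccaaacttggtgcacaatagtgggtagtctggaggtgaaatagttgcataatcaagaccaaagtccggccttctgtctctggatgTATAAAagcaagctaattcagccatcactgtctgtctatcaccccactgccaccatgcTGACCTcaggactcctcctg
Cyp2a5: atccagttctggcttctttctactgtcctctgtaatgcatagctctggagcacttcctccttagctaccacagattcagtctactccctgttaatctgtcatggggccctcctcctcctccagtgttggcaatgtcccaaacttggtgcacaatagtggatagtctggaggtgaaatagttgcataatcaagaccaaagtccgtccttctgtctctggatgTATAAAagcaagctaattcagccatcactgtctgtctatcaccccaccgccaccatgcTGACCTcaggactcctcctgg
Cyp2a22: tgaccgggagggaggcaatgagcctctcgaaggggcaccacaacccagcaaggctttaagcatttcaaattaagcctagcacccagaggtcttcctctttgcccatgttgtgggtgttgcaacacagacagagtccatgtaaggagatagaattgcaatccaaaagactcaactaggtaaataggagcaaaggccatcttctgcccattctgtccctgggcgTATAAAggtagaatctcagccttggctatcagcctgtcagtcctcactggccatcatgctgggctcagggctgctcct
Cyp2a12: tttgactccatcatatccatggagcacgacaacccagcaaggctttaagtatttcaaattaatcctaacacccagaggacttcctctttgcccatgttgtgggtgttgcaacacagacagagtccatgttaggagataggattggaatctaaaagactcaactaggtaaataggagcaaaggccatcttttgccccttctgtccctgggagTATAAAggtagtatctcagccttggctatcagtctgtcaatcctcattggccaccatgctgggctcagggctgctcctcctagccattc
Cyp2c38: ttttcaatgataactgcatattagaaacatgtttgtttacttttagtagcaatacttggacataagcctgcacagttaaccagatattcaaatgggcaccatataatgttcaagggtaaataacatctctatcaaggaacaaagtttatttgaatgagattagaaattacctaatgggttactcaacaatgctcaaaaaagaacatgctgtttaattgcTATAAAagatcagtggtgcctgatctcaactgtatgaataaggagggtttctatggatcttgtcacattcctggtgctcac
Cyp2c39: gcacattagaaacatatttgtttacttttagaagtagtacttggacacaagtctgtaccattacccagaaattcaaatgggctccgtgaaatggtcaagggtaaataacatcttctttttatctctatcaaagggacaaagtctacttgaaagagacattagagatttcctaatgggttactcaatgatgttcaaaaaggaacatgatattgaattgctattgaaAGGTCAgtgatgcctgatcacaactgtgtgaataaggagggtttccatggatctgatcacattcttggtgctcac
Cyp1a2: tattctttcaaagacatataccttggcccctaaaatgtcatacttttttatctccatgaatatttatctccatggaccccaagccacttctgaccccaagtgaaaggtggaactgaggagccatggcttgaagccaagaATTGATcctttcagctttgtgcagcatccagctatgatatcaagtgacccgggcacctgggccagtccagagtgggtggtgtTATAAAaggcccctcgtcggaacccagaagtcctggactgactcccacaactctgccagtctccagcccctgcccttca

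The windows of Cyp2a4 and Cyp2a5 were identical in 294 of 299 aligned columns (98.3%), and those of Cyp2a12 and Cyp2a22 in 259 of 289 (89.6%). Those printed for Cyp2c38 and Cyp2c39 were identical in 246 of 300 (82%), where the Cyp2c39 window is the one at that gene's RefSeq start. Between these Cyp2a pairs identity was lower, 56.3% for Cyp2a22 and Cyp2a4. TATAAA was in the windows of 20 of the 57 members (35.1%) and in 8.32% of the 32851 mouse windows. A member counted if any of its windows matched, and 5 members had more than 1 window. The mouse share counts each window singly, so the units differ. AGGTCA was in 14 of the 57 (24.6%, against 16.3% of all windows), ATTGAT in 14 (24.6%, against 7.54%), GCGTG in 11 (19.3%, against 32.4%) and TTCNNNGAA in 4 (7.02%, against 8.3%). Members of one subfamily share ancestry, so these shares are descriptions, and a match is not a shown binding site. The window of Cyp1a2 holds TATAAA and ATTGAT, those of Cyp2a4 and Cyp2a5 hold TATAAA and AGGTCA, that of Cyp2c38 holds TATAAA, and the printed window of Cyp2c39 holds AGGTCA. The other window of Cyp2c39 holds TATAAA and no AGGTCA. Probe sequences were not used here, so signal shared between near-identical members could not be separated, which bears on Cyp2a4 with Cyp2a5, on Cyp3a41a with Cyp3a41b (98.3% identical windows) and on Cyp2c40 with Cyp2c69 (98.9%).

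Array medians lay between 5.07 and 5.36 log2. A pair of arrays stood apart: ob/ob vehicle 3 had correlations of 0.948 and 0.952 with its own group, where the other pair reached 0.99, and wild-type vehicle 3 had 0.955, where the other pair reached 0.98. Their interquartile ranges were 3.26 and 3.01 log2, below those of the remaining arrays. The 8 hepatocyte markers, Alb and Ttr among them, were near the top of the scale in every group, their summed signal between 22.13 and 22.24 log2 on VE arrays, 22.02 and 22.18 on ob/ob vehicle arrays and 22.31 and 22.47 on wild-type arrays. Markers of T and NK cells, B cells, adipocytes, pancreatic acini and kidney tubules were at background on every array, and 0 of the marker genes of any cell type was called in any comparison. The 8 Kupffer cell and macrophage markers summed to between 8.53 and 9.86 log2 on VE arrays, 10.31 and 11.1 on ob/ob vehicle arrays and 9.31 and 10.28 on wild-type arrays, and their part in the results below was not tested. Lep, the mutated gene, was at background on all 9 arrays, so it does not check the genotype here. In whole liver, fewer cells of a type and less RNA per cell cannot be told apart.

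The values are log2 signals after the authors' normalization, and background was judged from 1091 olfactory receptor clusters, genes taken as silent in liver, and the level that 2.5% of them exceeded lay between 5.33 and 6.62 log2 over the arrays. Above that level on all 9 arrays were 50 of the 72 members. A further 8 were above it on some arrays and 14 on none, among them Cyp1a1, Cyp1b1, Cyp2g1, Cyp2s1, Cyp2t4, Cyp2w1 and Cyp4x1. Every member of 2a (4) and 2d (8) was above background throughout, as were 11 of 14 in 2c, 7 of 9 in 3a, 6 of 8 in 4a and 5 of 9 in 4f, against 3 of 7 in 2j. At the other end, Cyp3a11, the main Cyp3a enzyme of mouse liver, lay within 0.1 of its array's highest value on 8 arrays, and Cyp2a5 on 4 and Cyp2e1, which oxidises ethanol, on 1. Differences in these members are limited by the top of the scale, 19.93.

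**Figure D1:**
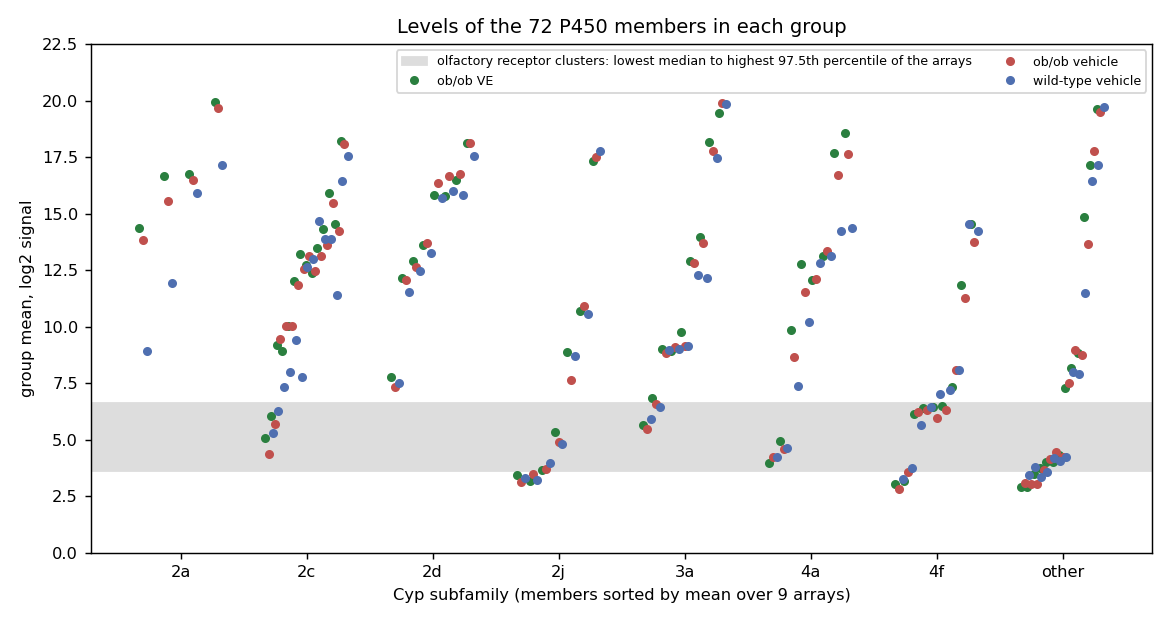
Group mean log2 signal (vertical axis) of each of the 72 members by subfamily (horizontal axis), with ob/ob VE in green, ob/ob vehicle in red and wild-type vehicle in blue. The grey band runs from the lowest median to the highest background level of the olfactory receptor clusters on any array; signals of different genes come from different probes and are not compared. Points of one member lie close together for most members and far apart for Cyp2a22, Cyp2a4, Cyp2c38, Cyp2c39 and Cyp4a14, where blue is lowest.

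The first comparison asked how livers of untreated obese mice differ from lean ones. Between ob/ob vehicle and wild-type livers, 7 members rose and 2 fell. The 3 comparisons come from 1 limma fit over 9 arrays, and a member was called where its p, adjusted after Benjamini and Hochberg across the whole array, was under 0.05. The risen members were Cyp2a22, Cyp2a4, Cyp2a5, Cyp2c38, Cyp2c39, Cyp3a59 and Cyp4a14, with log2 differences from 1.55 to 4.93, and the fallen ones were Cyp1a2 and Cyp2u1. The 7 are 9.72% of the members, where 2.28% of all clusters rose, and the 2 are 2.78%, where 0.68% of all clusters fell. The median difference was 0.07 over the members, which ran from -3.26 to 4.93, and -0.06 over all clusters. Without both arrays that stand apart, 13 members rose and 4 fell, where 5.71% and 2.15% of all clusters did. The replicate block, which uses the replicate numbers of the labels, gave 8 and 1 (2.09% and 0.513% of all clusters), and quantile normalization gave 6 and 4. Over all clusters 507 rose and 151 fell, against 290 and 256 after quantile normalization.

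**Figure D2:**
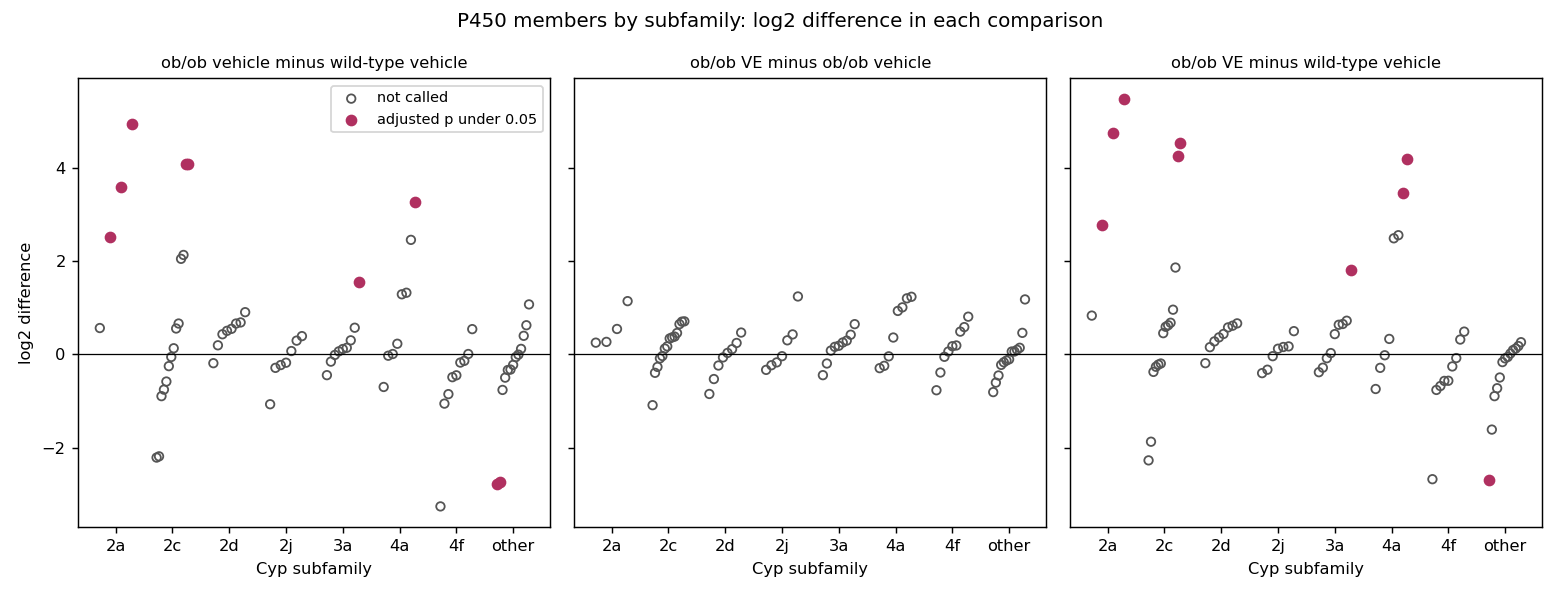
Log2 difference (vertical axis) of each member by subfamily (horizontal axis) for ob/ob vehicle minus wild type, ob/ob VE minus ob/ob vehicle, and ob/ob VE minus wild type. Filled points had an adjusted p under 0.05: 9 in the first panel, 0 in the second and 9 in the third, with 2a, 2c and 4a members highest.

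Of the subfamilies with 3 or more members, 2a had the largest share of called ones, 3 of 4, with a median difference of 3.06. Cyp2a22 read 13.93, 14.22 and 13.37 log2 in ob/ob vehicle livers, against 9.09, 8.78 and 8.85 in wild type. The groups lay far apart, a 30.6-fold difference on this scale (log2 4.93, SE 0.29; limma adjusted p = 2.09e-05). Cyp2a4, a steroid 15α-hydroxylase that is female-biased in mouse liver, read 15.66, 16.54 and 14.43 in ob/ob vehicle livers, against 12.78, 11.97 and 11.09 in wild type. The lowest ob/ob array was above the highest wild-type array, and the difference was 12.1-fold (log2 3.60, SE 0.60; limma adjusted p = 0.0134). Cyp2a5, which hydroxylates coumarin and nicotine, read 19.36, 19.86 and 19.78 in ob/ob vehicle livers, against 18.37, 17.50 and 15.58 in wild type. Here too the groups did not overlap, but the ob/ob values were near the top of the scale and the wild-type arrays spread by almost 3 log2 (difference 2.52, SE 0.56, limma adjusted p = 0.0421). The SE also draws on the VE arrays, which read 19.92, 19.92 and 19.91, at the ceiling. With only the groups compared in the fit, the difference was not called (limma adjusted p = 0.133). Cyp2a12, a steroid 7α-hydroxylase whose promoter is close to that of Cyp2a22, was not called: it read 16.58, 16.92 and 15.97 in ob/ob vehicle livers and 16.13, 16.22 and 15.43 in wild type, and the groups overlapped (difference 0.56, limma adjusted p = 0.396). In RefSeq the 4 genes lie in the order Cyp2a4, Cyp2g1, Cyp2a5, Cyp2a22, Cyp2a12 on chromosome 7, and Cyp2g1, an enzyme of the olfactory mucosa that lies among them, was at background in every sample.

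In subfamily 2c, 2 of 14 members were called higher and 0 lower, with a median of 0.04 (-0.36 after quantile normalization). Cyp2c38, which oxidises arachidonic acid, read 15.35, 16.27 and 14.77 in ob/ob vehicle livers, against 11.41, 10.40 and 12.35 in wild type. Cyp2c39, a retinoic acid hydroxylase, read 12.35, 11.99 and 11.25 in ob/ob vehicle livers, against 8.59, 7.81 and 6.94 in wild type. Neither gene's groups overlapped, and both differences were 4.08 log2 (SE 0.52 for Cyp2c38 and 0.46 for Cyp2c39; limma adjusted p = 0.00397 and 0.0023). They are neighbours on chromosome 19. Just past the threshold on the other side was Cyp2c70, which makes muricholic acids, the rodent bile acids: it read 12.48, 12.32 and 12.61 in ob/ob vehicle livers, against 14.55, 15.20 and 14.22 in wild type (difference -2.19, SE 0.52; limma adjusted p = 0.0526). Its groups did not overlap either, and it was called lower in 10 of 19 alternative settings, which include leaving out ob/ob vehicle 3 (limma adjusted p = 0.0407). Cyp2c23, an epoxygenase of arachidonic acid, differed by -2.21 (limma adjusted p = 0.103), while Cyp2c40 differed by 2.13 (0.0835) and Cyp2c55, another arachidonic acid hydroxylase, by 2.05 (0.108). These last 4 genes and Cyp2a12 were picked after their values were seen. Cyp2c50, the member of 2c with the highest mean signal, read 18.43, 18.02 and 17.79 in ob/ob vehicle livers and 18.06, 17.34 and 17.18 in wild type, with overlapping groups and a difference of 0.55 (limma adjusted p = 0.557).

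In subfamily 4a, whose enzymes hydroxylate the far end of fatty acids, 1 of 8 members was called higher and the median was 0.76. Cyp4a14 read 17.93, 18.66 and 16.32 in ob/ob vehicle livers, against 13.58, 14.48 and 15.05 in wild type. The groups did not overlap, although ob/ob vehicle 3 lay well below its group, and the difference was 9.62-fold (log2 3.27, SE 0.63; limma adjusted p = 0.0248). Cyp4a10 read 16.98, 17.68 and 15.41 in ob/ob vehicle livers, against 13.87, 14.56 and 14.28 in wild type. It was also separated, with a difference of 2.45 (SE 0.58) that missed the threshold (limma adjusted p = 0.0519). Cyp4a10 passed it in 7 of 19 alternative settings, the replicate block among them (limma adjusted p = 0.0415). With 1 array left out its limma adjusted p was as high as 0.173. Its neighbours on chromosome 4, Cyp4a31 and Cyp4a32, differed by 1.29 and 1.32 (limma adjusted p = 0.239 and 0.374). The remaining members showed less: Cyp4a12a and Cyp4a12b, male-biased enzymes that make 20-HETE from arachidonic acid, differed by 0.23 and -0.70, and Cyp4a29 and Cyp4a30b were at background on all arrays.

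Cyp3a59 was the called member of 9 in subfamily 3a, where the median was 0.11. It read 13.53, 13.89 and 13.73 in ob/ob vehicle livers, against 12.00, 12.77 and 11.74 in wild type, so the groups were apart, by 1.55 log2 (SE 0.31; limma adjusted p = 0.029). After quantile normalization its difference was 1.15 and not called (limma adjusted p = 0.104). Cyp3a11, the enzyme with the widest drug range, read 19.87, 19.93 and 19.93 in ob/ob vehicle livers and 19.93, 19.83 and 19.78 in wild type; these values sit at the ceiling of the scale and could not show a rise. The other members of 3a had differences between -0.45 for Cyp3a16 and 0.57 for Cyp3a13.

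The called members that fell came from subfamilies with few genes. Cyp1a2, which oxidises caffeine and aromatic amines and is a classical target of the aryl hydrocarbon receptor, read 13.61, 14.59 and 12.78 in ob/ob vehicle livers, against 16.55, 17.09 and 15.71 in wild type. Every ob/ob array was below every wild-type array, a 6.92-fold lower signal (log2 -2.79, SE 0.63; limma adjusted p = 0.0449), but the call held in only 8 of 19 alternative settings. It was lost with the replicate block (limma adjusted p = 0.065) and on leaving out any single array except VE 2 (limma adjusted p from 0.0511 to 0.169). Cyp1a1, the other 1a enzyme, and Cyp1b1 were at background in all groups. Cyp2u1, a fatty acid hydroxylase in humans and male-biased in mouse liver, read 8.97, 9.46 and 7.86 in ob/ob vehicle livers, against 12.07, 11.83 and 10.63 in wild type. These groups were also separate, by 6.71-fold (log2 -2.75, SE 0.49; limma adjusted p = 0.0178).

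**Figure D3:**
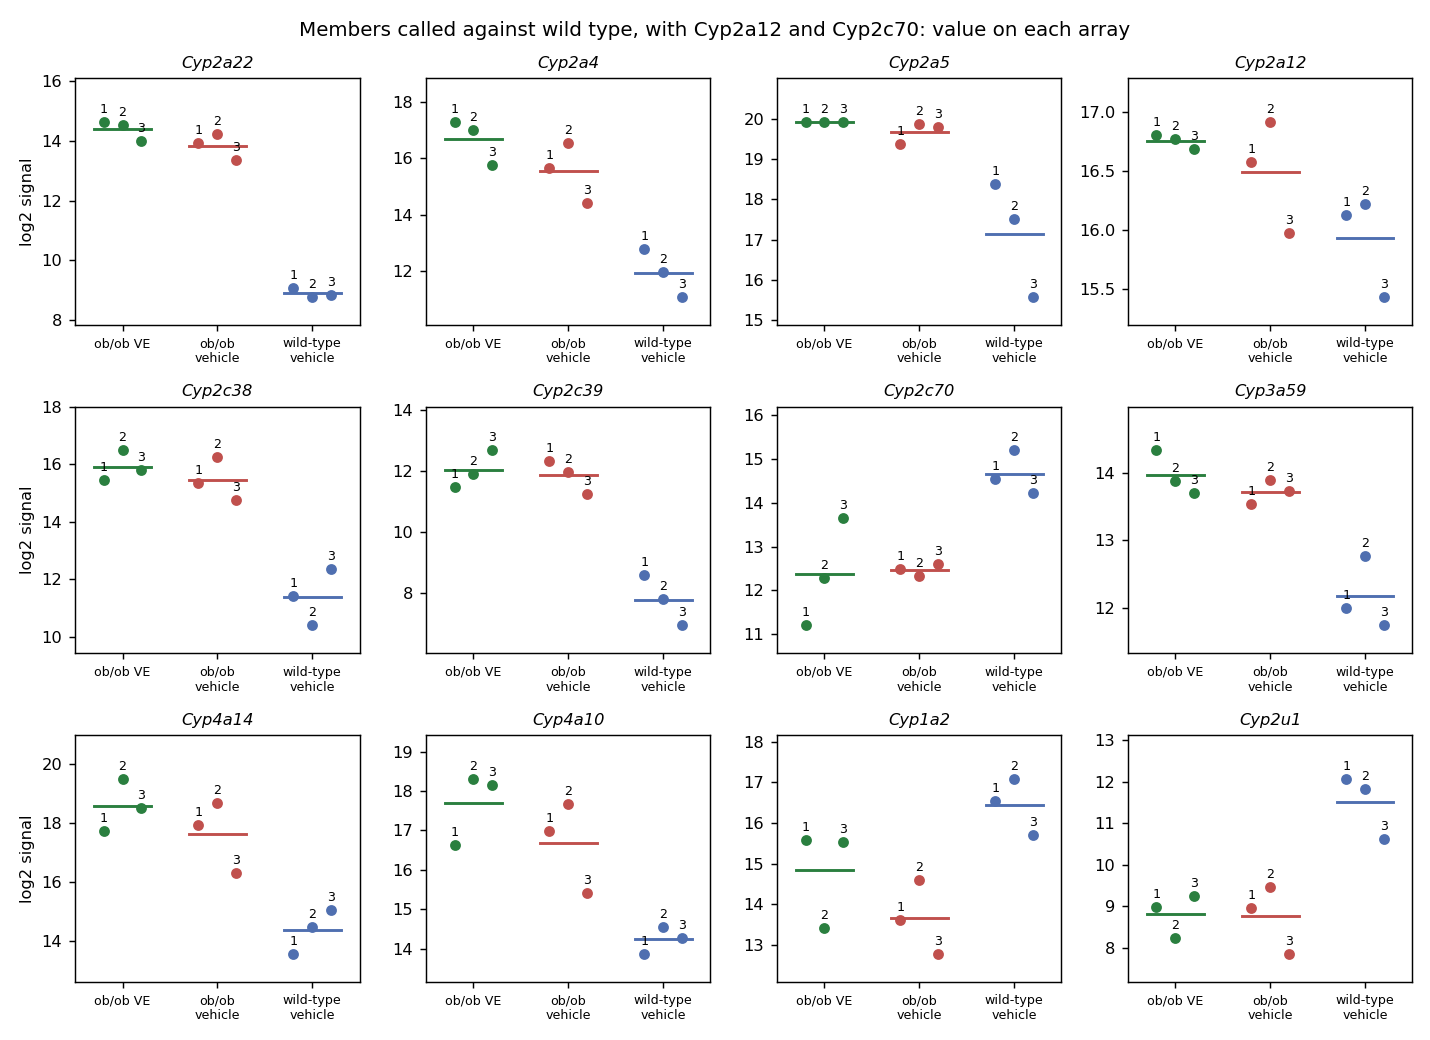
Log2 signal (vertical axis) on each array of the 10 members called in any comparison, with Cyp2a12 and Cyp2c70, by group (horizontal axis: ob/ob VE, ob/ob vehicle, wild-type vehicle). Numbers are replicate numbers and bars are group means of 3 arrays. In the 8 risen members (Cyp2a22, Cyp2a4, Cyp2a5, Cyp2c38, Cyp2c39, Cyp3a59, Cyp4a14, Cyp4a10) all ob/ob arrays lie above all wild-type arrays, and in Cyp1a2 and Cyp2u1 below.

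Subfamilies 2d, 2j and 4f had 0 called members in any comparison. Before adjustment, p was under 0.05 between ob/ob vehicle and wild type in 0 of 8 in 2d, 1 of 7 in 2j (lower) and 3 of 9 in 4f (all lower). The 2d median was 0.53, with a range from -0.19 to 0.90. Cyp2d26, the 2d member with the highest mean, read 18.57, 18.55 and 17.22 in ob/ob vehicle livers and 17.61, 17.64 and 17.45 in wild type, where ob/ob vehicle 3 was below the wild-type arrays and the other ob/ob arrays above them. Cyp2j5, an epoxygenase of arachidonic acid in liver and kidney, read 17.76, 17.88 and 16.92 in ob/ob vehicle livers and 17.90, 17.81 and 17.54 in wild type, with overlap and a difference of -0.23. In 4f the median was -0.45. Cyp4f14, which hydroxylates leukotriene B4 and vitamin E, had the largest negative difference of any member: it read 11.98, 11.45 and 10.37 in ob/ob vehicle livers, against 14.99, 15.21 and 13.38 in wild type. The groups did not overlap, and the difference of -3.26 (SE 0.83) missed the threshold (limma adjusted p = 0.0707). Cyp4f18 and Cyp4f37 differed by -1.06 and -0.85 and also missed it (limma adjusted p = 0.0791 and 0.13), whereas Cyp4f15, the 4f member with the highest mean, read 14.58, 14.22 and 12.44 in ob/ob vehicle livers and 14.19, 14.36 and 14.16 in wild type (difference -0.49). Cyp4f14, Cyp4f18 and Cyp4f37 were picked after their values were seen.

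Counting separation alone, 11 members had every ob/ob vehicle array above every wild-type array (15.3%, where 9.71% of all clusters did) and 13 had every one below (18.1%, where 9.78% did). By the criterion of the study's design text (a fold over 1.1 with p under 0.05 before adjustment), 11 members were higher (15.3%, against 10.3% of all clusters) and 10 were lower (13.9%, against 6.72%). The lower ones by that criterion were spread over 1a (1), 2c (3), 2j (1), 2t (1), 2u (1) and 4f (3). In each of the 9 called members the lower group was above background on all 3 arrays. The remaining single-gene subfamilies had differences between -0.76 for Cyp2t4, which was at background, and 1.07 for Cyp2r1, the vitamin D 25-hydroxylase. Cyp2e1 differed by -0.23 and Cyp2f2, which oxidises naphthalene and marks periportal hepatocytes, by 0.62 (limma adjusted p = 0.718 and 0.657). Without ob/ob vehicle 3, which read 16.09 for Cyp2f2 where its group otherwise read 18.31 and 18.93, the difference was 1.47 and called (limma adjusted p = 0.0233).

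The next question was how livers of obese mice differed after the extract. Between VE and vehicle in ob/ob mice, 0 of the 72 members and 0 of the 22206 clusters passed the threshold (limma, 0% in either direction). The lowest adjusted p of any cluster was 0.593, and that of any member 0.741. Before adjustment, p was under 0.05 with a fold over 1.1 for 5 members, of which 4 were higher with VE (5.56%, where 3.56% of all clusters were) and 1 was lower (1.39%, where 2.9% were), shares near the background. Separation counted 6 members above ob/ob vehicle (8.33%, against 7.47% of all clusters) and 3 below (4.17%, against 6.08%), also near the background. The median difference was 0.13 over the members and -0.01 over all clusters. Array weights also gave 0 called members, where 27 clusters were higher and 79 lower (0.122% and 0.356% of the array). Without ob/ob vehicle 3 alone, 0 members were called, where 0 clusters were higher and 51 lower (0.23%). Leaving out both arrays that stand apart gave 1 member, Cyp2f2, lower with VE by 1.45 (limma adjusted p = 0.0426), or 1.39% of the members. In that setting 48 clusters were higher and 312 lower, 0.216% and 1.41% of the array.

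The members with the smallest p are given with their values, none of them a called difference. Cyp2j9, known to make 19-HETE in brain, read 8.86, 9.59 and 8.20 in VE livers, against 7.92, 7.99 and 7.02 in ob/ob vehicle livers. The groups did not overlap, with a difference of 1.24 (SE 0.44; limma adjusted p = 0.741), and the wild-type arrays, at 8.0, 9.23 and 8.91, lay in the range of the VE arrays or just below it. Cyp4a31 read 9.09, 10.10 and 10.39 in VE livers and 8.87, 9.46 and 7.65 in ob/ob vehicle livers, with overlap and a difference of 1.20 (SE 0.52; limma adjusted p = 0.767). Cyp2c68 read 12.92, 13.45 and 13.28 in VE livers and 12.89, 12.57 and 12.25 in ob/ob vehicle livers, separated by a small margin (difference 0.65, SE 0.29). Cyp4f13 read 6.71, 7.71 and 7.53 in VE livers and 8.48, 7.98 and 7.80 in ob/ob vehicle livers, the one member of this set that was lower with VE (difference -0.77, SE 0.35; limma adjusted p = 0.767). Cyp2c66 read 4.75, 5.01 and 5.48 in VE livers and 3.98, 4.43 and 4.73 in ob/ob vehicle livers, and Cyp2w1 read 3.48, 3.29 and 3.68 against 2.98, 3.14 and 2.95. Both of these lie near or below the background level, so their differences of 0.70 and 0.46 are between dim signals.

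The members called against wild type were read for VE in the same way, and 0 of them passed the test. Cyp2a22 read 14.64, 14.52 and 13.99 in VE livers, a difference of 0.54 (SE 0.29) from ob/ob vehicle; Cyp2a4 read 17.29, 16.99 and 15.77, a difference of 1.14 (SE 0.60). Cyp2c38 and Cyp2c39 differed by 0.46 and 0.17, Cyp4a14 and Cyp4a10 by 0.93 and 1.01, Cyp3a59 by 0.25 and Cyp2u1 by 0.06. Cyp1a2 read 15.57, 13.42 and 15.52 in VE livers against 13.61, 14.59 and 12.78 in ob/ob vehicle livers, with overlap, since VE 2 lay below 2 of the vehicle arrays (difference 1.18, SE 0.63; limma adjusted p = 0.798). By subfamily the median differences with VE were 0.41 in 2a, 0.26 in 2c, -0.02 in 2d, -0.04 in 2j, 0.18 in 3a, 0.65 in 4a and 0.17 in 4f. In 4a, Cyp4a10, Cyp4a14, Cyp4a31 and Cyp4a32 each differed by between 0.93 and 1.23 and Cyp4a12a and Cyp4a12b by -0.25 and -0.04, with 0 of these 6 called. Ob/ob vehicle 3, an array that stands apart, was the lowest of its group in all of these genes. Without it the difference was 0.27 for Cyp4a14, 0.37 for Cyp4a10 and 0.695 for Cyp4a31. With 3 arrays a group, a missed threshold does not show that VE and vehicle livers were alike.

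Between VE-treated ob/ob and wild-type livers, 8 members rose and 1 fell (11.1% and 1.39% of the members, where 0.977% of all clusters rose and 0.315% fell). This comparison shares its wild-type arrays with the one of vehicle-treated ob/ob mice. Cyp2a22 differed by 5.48 log2 (44.5-fold, SE 0.29, limma adjusted p = 7.73e-06), Cyp2a4 by 4.74 (26.7-fold, limma adjusted p = 0.00448) and Cyp2a5 by 2.77 (limma adjusted p = 0.0433). With only the groups compared in the fit, Cyp2a5 was not called (limma adjusted p = 0.0583). Cyp2c38, at 15.46, 16.49 and 15.81 in VE livers, differed by 4.53, and Cyp2c39, at 11.49, 11.92 and 12.69, by 4.25 (limma adjusted p = 0.00265 and 0.00226). Cyp4a14 read 17.71, 19.49 and 18.50 in VE livers and Cyp4a10 read 16.64, 18.31 and 18.14. All of these lay above every wild-type array, with differences of 4.20 and 3.46 (limma adjusted p = 0.0111 and 0.0185), and Cyp4a31, at 2.49, was just short of the threshold (0.0505). Cyp3a59 differed by 1.80 (limma adjusted p = 0.0208), and 1.47 after quantile normalization (0.0718). Cyp2u1, at 8.99, 8.23 and 9.25 in VE livers, was 6.44-fold lower (log2 -2.69, SE 0.49; limma adjusted p = 0.0279), and lost the call after centring each array on its median (0.0512).

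Cyp1a2 was not called in this comparison: VE livers averaged 14.84 ± 1.23 and wild-type livers 16.45 ± 0.70 (SD, n = 3 each; difference -1.61, limma adjusted p = 0.283). A call against wild type in vehicle livers and none in VE livers does not show that the 2 differ, and the test between them was not passed. Without both arrays that stand apart, 11 members rose and 3 fell, where 1.79% and 0.892% of all clusters did. Separation counted 13 members above wild type (18.1%, against 11.1% of all clusters) and 8 below (11.1%, against 10.6%), the second of which is near the background share. By the design text's criterion 13 members were higher (18.1%, against 8.21% of all clusters) and 8 were lower (11.1%, against 5.82%). Over all clusters 217 rose and 70 fell, against 153 and 97 after quantile normalization.

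The VE arrays were far apart from each other in many P450 members. Of the 50 members above background on all arrays, 13 (26%) spanned over 2 log2 among the 3 VE arrays, 9 (18%) among the ob/ob vehicle arrays and 2 (4%) among the wild-type arrays. Of the 6000 clusters of the whole array above background in the same way, 1.63% did so among VE arrays, 8.95% among ob/ob vehicle arrays and 3.8% among wild-type arrays. The median range of the members was 1.18 log2 among VE arrays, 0.90 among ob/ob vehicle arrays and 0.98 among wild-type arrays, and that of the 6000 clusters was 0.55, 0.84 and 0.77. These are descriptions without a test, and the genes shown next were picked for their wide range.

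Cyp4a12b read 11.34, 10.20 and 14.61 in VE livers, against 12.29, 13.42 and 10.57 in ob/ob vehicle livers and 13.24, 12.83 and 12.31 in wild type. Cyp2c54 read 11.58, 13.16 and 15.75 in VE livers, against 13.26, 12.70 and 13.39 in ob/ob vehicle livers and 14.40, 13.84 and 13.38 in wild type. Cyp2d9, a testosterone 16α-hydroxylase that is male-biased, read 13.76, 15.88 and 17.73 in VE livers, against 16.93, 16.46 and 16.53 in ob/ob vehicle livers and 17.09, 15.24 and 15.61 in wild type. In all of these VE 3 was the highest of the 9 arrays, and VE 1 or VE 2 was the lowest. Cyp4f14, at 10.19, 11.50 and 13.86, and Cyp2d13, at 14.12, 16.12 and 17.25, showed the same order of VE arrays as Cyp2c54. Over the 50 members, VE 3 was the highest of its group in 26 and VE 1 the lowest in 29. The other groups had like counts: ob/ob vehicle 2 was the highest of its group in 27 and ob/ob vehicle 3, an array that stands apart, the lowest in 35, and wild-type vehicle 1 was the highest in 26 and wild-type vehicle 3 the lowest in 27.

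**Figure D4:**
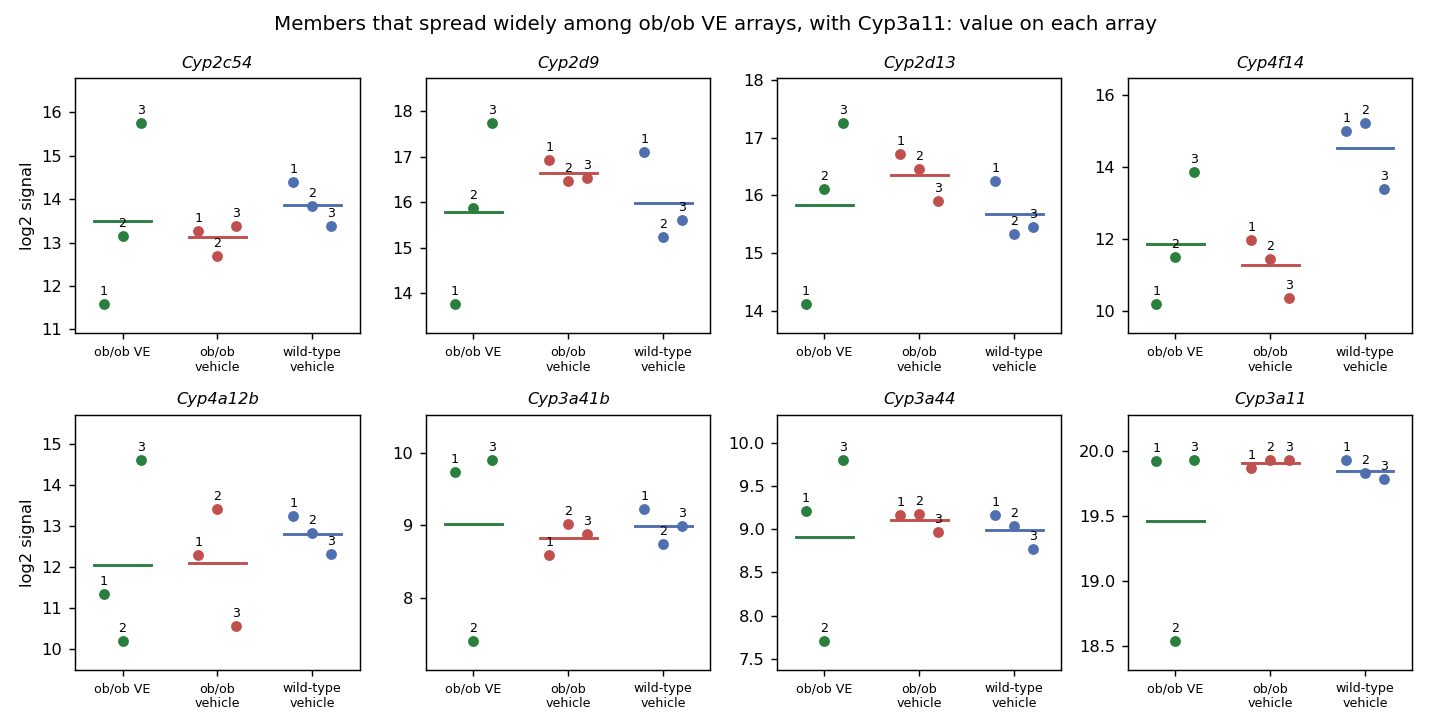
Log2 signal (vertical axis) on each array of 7 members chosen for their wide range among ob/ob VE arrays, with Cyp3a11, by group (horizontal axis: ob/ob VE, ob/ob vehicle, wild-type vehicle). Numbers are replicate numbers and bars are group means of 3 arrays. VE 3 is highest in Cyp2c54, Cyp2d9, Cyp2d13 and Cyp4a12b, and VE 2 is lowest in Cyp3a41b, Cyp3a44 and Cyp3a11.

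The 3a members had no common order of VE arrays. Cyp3a41b, a female-biased enzyme, read 9.73, 7.41 and 9.90 in VE livers, against 8.59, 9.02 and 8.88 in ob/ob vehicle livers and 9.23, 8.74 and 8.99 in wild type. Cyp3a44 read 9.21, 7.71 and 9.80 in VE livers, and Cyp3a11 read 19.92, 18.54 and 19.93. VE 2 was the lowest array of its group in these 3, as it was for Cyp1a2, whereas in Cyp3a25 and Cyp3a59 VE 3 was the lowest and in Cyp3a13 VE 2 was the highest. On the same array the Cyp4a14 and Cyp4a10 signals were the highest of the 9. Across the 9 arrays, after each group's mean was taken away, the highest correlation, 0.983 for Cyp3a11 with Cyp3a41b, rested on VE 2, since Cyp3a11 was near the top of the scale on the other 8. Next were Cyp2d22 with Cyp4f15, of different subfamilies, at 0.977, Cyp2c39 with Cyp2c67 at 0.971 and Cyp2d9 with Cyp2d13 at 0.965. The median correlation was 0.528 over 138 pairs from the same subfamily and 0.209 over 1087 pairs from different ones. By subfamily it was 0.666 in 2d, 0.622 in 2a, 0.621 in 2c, 0.479 in 4a, 0.383 in 2j, -0.033 in 3a and -0.135 in 4f. All pairs share the same arrays and near-identical members may share signal, so the correlations describe these arrays only.

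Members grouped by known sex bias or place in the lobule gave mixed counts. Of 12 members listed as female-biased, 3 rose in ob/ob vehicle livers against wild type (Cyp2a4, Cyp2c39 and Cyp4a14) and 0 fell, with a median of 0.53, beside 2.28% and 0.68% of all clusters. The uncalled members of that list ran from -0.45 for Cyp3a16 to 2.45 for Cyp4a10. Every ob/ob vehicle array was above every wild-type array for Cyp4a10, for Cyp2c40 (2.13) and for Cyp2c69 (0.66), while Cyp3a41a, Cyp3a41b, Cyp3a44 and Cyp2c37 had differences between -0.25 and 0.14. Of 4 listed as male-biased, 1 fell (Cyp2u1) and Cyp2d9, Cyp4a12a and Cyp4a12b were not called. Of 7 pericentral members measured, Cyp2a5 rose, Cyp1a2 fell and 5 were not called, Cyp2e1 among them. With VE against ob/ob vehicle, 0 of these were called.

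Genes that serve or regulate P450 enzymes were taken from lists. Among 13 measured partners and heme genes, 2 rose in ob/ob vehicle livers and 0 fell, beside 2.28% and 0.68% of all clusters: Hmox1, which degrades heme, by 1.18 (limma adjusted p = 0.0278) and Blvrb, which reduces biliverdin, by 1.94 (0.0297). Hmox1 read 8.33, 8.05 and 7.75 in VE livers, 9.41, 9.35 and 9.50 in ob/ob vehicle livers and 8.35, 8.11 and 8.25 in wild type. The VE arrays were all below the vehicle arrays and in the range of wild type or below it, by 1.38 from ob/ob vehicle, and this was not called (limma adjusted p = 0.593). Among 21 receptors and regulators 1 rose and 1 fell: Pparg rose by 3.51 (limma adjusted p = 0.00922) and Onecut1, which encodes HNF6, fell by 3.50 (0.0246). Onecut1 read 7.71, 8.38 and 6.90 in ob/ob vehicle livers, against 11.52, 12.17 and 9.79 in wild type. The receptors for Cyp1a, Cyp3a and Cyp4a genes were not called in that comparison: Ahr differed by -0.03, Nr1i2 (PXR) by 0.44, Nr1i3 (CAR) by -0.93 and Ppara by 0.67.

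The PXR and CAR genes were the regulators with the lowest p for VE, and were named after their values were seen. Nr1i2 read 10.04, 10.19 and 9.91 in VE livers, against 9.11, 9.63 and 8.56 in ob/ob vehicle livers and 8.86, 8.54 and 8.57 in wild type. Every VE array was above every other array, and the difference from ob/ob vehicle was 0.95 (limma adjusted p = 0.709) and from wild type 1.39, which was called (limma adjusted p = 0.0495). Nr1i3 read 13.86, 14.09 and 13.73 in VE livers and 12.78, 13.27 and 11.16 in ob/ob vehicle livers, apart by 1.49 (limma adjusted p = 0.741), and 12.61, 13.90 and 13.49 in wild type. Cyb5r3, which reduces cytochrome b5, read 14.70, 14.53 and 14.61 in VE livers and 18.15, 17.46 and 14.50 in ob/ob vehicle livers. Its difference of -2.09 (limma adjusted p = 0.741) rested on ob/ob vehicle 1 and 2, and the groups overlapped.

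Other known targets of the same receptors are given as counts, beside the 2.28% of all clusters that rose. Of 15 measured PPARα targets outside the P450 genes, 7 rose in ob/ob vehicle livers and 0 fell, with a median of 2.22. They were Acaa1b and Ehhadh of peroxisomal fatty acid oxidation (2.22 and 2.31), the carnitine carrier Slc25a20 (2.35), the pantetheinase Vnn1 (4.98), Acot3, Pex11a and the lipid droplet protein Plin2. Of 10 measured CAR and PXR targets, 4 rose and 0 fell. The estrogen sulfotransferase Sult1e1 was not above background on any wild-type array, so its rise is a bound, at least 201-fold over that background level (limma adjusted p = 0.000766). Gstm3 rose by 6.30, Gsta2 by 3.92 and the exporter Abcc4, above background on 1 of 3 wild-type arrays, by 3.35. Among the uncalled genes of this list, Ces2a had every ob/ob vehicle array below every wild-type array (difference -1.62, limma adjusted p = 0.117). Of 4 measured targets of the aryl hydrocarbon receptor outside the P450 genes, Nqo1, a gene that other pathways also induce, rose by 3.49 (limma adjusted p = 0.00326). Ahrr, above background on all arrays, differed by -0.50 and was not called (limma adjusted p = 0.397). Tiparp and Aldh3a1 were at background on every ob/ob vehicle and wild-type array, so their differences of 0.13 and 0.03 are between background signals. Of 20 genes of P450 families 5 and above, Cyp17a1, the steroid 17α-hydroxylase, rose by 5.43, and by 3.70 without wild-type vehicle 3, where it was not above background. In the same list Cyp7b1 and Cyp27a1 of the acidic bile acid pathway fell by 6.47 and 1.98. Acot3, Nqo1 and Pparg were above background on 2 of 3 wild-type arrays. With VE against ob/ob vehicle, 0 genes of any list were called.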

How the data were processed

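The deposited values are on the log2 scale, 1 for each transcript cluster on each array. The authors made them from Clariom S scans by SST-RMA in Transcriptome Analysis Console 4.0.2, per the design text and the submitters' processing notes. SST-RMA counters the compression of differences, so folds depend on that step. Detection calls were not used here, and the number of arrays, 3 per group, limits the precision. Nothing in the labels ties arrays to separate animals beyond the design's n, so p-values measure the spread between these samples.

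Symbols came from the platform annotation. All 72 members matched RefSeq (GRCm38.p6) by Entrez ID, with 0 symbols changed. The array's genome build is not given in the sources used here. Promoter windows are RefSeq's, aligned with biopython 1.88. The model was fitted in R 4.3.3 by limma 3.58.1 (a mean per group over 9 arrays, 6 residual and 4.45 prior degrees of freedom, eBayes defaults, two-sided, Benjamini-Hochberg over 22206 clusters). The fit was tested on simulated data. Per-array values are given for called members, the 6 members with the smallest p for VE against ob/ob vehicle and the member with the highest mean of each subfamily of 3 or more, and up to 4 genes of each other list are named by smallest p. Exceptions are stated. No sequence of a protein was used here.

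The members and all lists were chosen with earlier results of these data known. Replicate numbers are shared by the groups. Deviations of same-numbered arrays correlated at 0.256, 0.262 and 0.45 between ob/ob vehicle and wild type, all above 0.1, and were taken to pair those arrays, although the labels do not say what a number marks. The highest, 0.45, was for replicate 3, the array that stands apart in both groups, and these correlations are not independent. A pairing and a trait shared by the arrays that stand apart therefore cannot be told apart. The correlations were between -0.13 and 0.0157 for VE with ob/ob vehicle, and between -0.208 and -0.0412 for VE with wild type. Alternatives were quantile normalization, median centring, leaving out the dimmest 30% or 50% of clusters, fits of the 2 groups alone, trended and robust eBayes, array weights, the interquartile range as a covariate, the replicate block, leaving out each array or both that stand apart, and the design text's criterion.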

Additional observations from a re-analysis of the deposited data

How the results depend on the processing

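The 3 arrays per group, dim clusters without detection calls and the top of the scale limit these results. Cyp2a22, Cyp2c38 and Cyp2c39 were called in all 19 alternative settings that kept the adjusted threshold, in both comparisons with wild type. Of the other members called for ob/ob vehicle, Cyp2a4 and Cyp2u1 kept the call in 16, Cyp4a14 in 13, Cyp2a5 and Cyp3a59 in 11 and Cyp1a2 in 8. For VE against wild type Cyp2a4 kept it in 19, Cyp4a14 in 17, Cyp3a59 and Cyp4a10 in 15, Cyp2u1 in 13 and Cyp2a5 in 11. With 1 array left out, the highest limma adjusted p for ob/ob vehicle against wild type was 0.0659 for Cyp2a4, 0.0844 for Cyp2u1, 0.0998 for Cyp4a14, 0.136 for Cyp2a5 and 0.114 for Cyp3a59. Of the 19 called genes of the other lists in that comparison, 8 kept the call whichever array was left out (Sult1e1, Gsta2, Nqo1, Pparg, Vnn1, Acaa1b, Slc25a20 and Cyp7b1), and Plin2 kept it in 2 of 9, a check chosen after seeing the data. No called difference changed sign. Median centring put the median difference of all clusters, for ob/ob vehicle against wild type, at 0.057, where it was -0.06 as reported.

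The number of members called higher for ob/ob vehicle against wild type, 7, was 12 with array weights, 4 when the interquartile range was a covariate, 13 without both arrays that stand apart and 11 by the design text's criterion. Of all clusters 2.28% rose in the main fit. That share was 6.85% with array weights, 2.44% with the covariate, 5.71% without both arrays and 10.3% by the criterion. Leaving out 1 array gave 3 to 12 members: 3 without ob/ob vehicle 1 or 2, 12 on leaving out ob/ob vehicle 3 and 4 on leaving out wild-type vehicle 2. In these fits, in that order, 0.563%, 0.585%, 6.08% and 0.468% of all clusters rose. The number of members lower, 2, was 4 after quantile normalization, 1 after median centring, 4 without the dimmest 50%, 1 with only the groups compared, 6 with array weights, 5 with the interquartile range, 1 with the replicate block, 4 without both arrays and 10 by the design text's criterion. In the same order, 1.15%, 0.459%, 1.59%, 0.279%, 2.77%, 1.41%, 0.513%, 2.15% and 6.72% of all clusters fell. In the main fit 0.68% did. With only the groups compared, Cyp1a2 and Cyp2u1 both lost the call (limma adjusted p = 0.0601 and 0.0605), and the 1 lower member was Cyp2c70 (0.0236). Cyp4a14, Cyp3a59 and Cyp2a5 also lost theirs in that fit (limma adjusted p = 0.0634, 0.086 and 0.133), and Cyp2c40 was called higher (0.0458). Leaving out 1 array gave 0 to 3 members lower: 0 when ob/ob vehicle 1 was left out, or wild-type vehicle 2 was, and 1 on leaving out wild-type vehicle 1 or 3 or ob/ob vehicle 2. For VE against ob/ob vehicle the counts of 0 higher and 0 lower were 4 and 1 by the design text's criterion, 1 lower without both arrays, and 0 to 0 with 1 array left out. Of all clusters, 0% were higher and 0.23% lower without ob/ob vehicle 3, and 0.122% and 0.356% with array weights. For VE against wild type the 8 higher were 13 by the design text's criterion and 4 to 9 with 1 array left out, 5 without wild-type vehicle 2 and 4 without VE 2. Of all clusters 0.977% rose in the main fit, 8.21% by that criterion, 0.284% without wild-type vehicle 2 and 0.221% without VE 2. The 1 member lower was 2 after quantile normalization, 0 after median centring, 2 without the dimmest 50%, 2 with array weights, 3 with the interquartile range, 3 without both arrays and 8 by the design text's criterion. In the same order, 0.437%, 0.243%, 0.721%, 1.02%, 0.662%, 0.892% and 5.82% of all clusters fell, against 0.315% in the main fit. With 1 array left out the number of members lower was 0 to 2: 0 without wild-type vehicle 1 or 2 or VE 1 or 2, and 2 without ob/ob vehicle 3 or VE 3. The replicate block, whose pairing rests only on correlations between ob/ob vehicle and wild type, gave 8 higher and 1 lower there. It gave 0 and 0 for VE against ob/ob vehicle, and 8 and 1 for VE against wild type. It lost Cyp1a2 and gained Cyp4a10, and changed no other call of the named members. The cause of these shifts was not tested.

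Differences that were not called changed sign for some members. For ob/ob vehicle against wild type, Cyp4f13 (0.01) was -0.27 after quantile normalization, -0.37 with the interquartile range and -0.19 to 0.27 with 1 array left out, Cyp2c68 (-0.06) was 0.063 after median centring and -0.28 to 0.12 with 1 array left out, and Cyp2d26 (0.55) was -0.071 with the interquartile range. Cyp2j5 (-0.23) ranged from -0.41 to 0.07 with 1 array left out, and Cyp4f15 (-0.49) was 0.12 without both arrays and -0.91 to 0.16 with 1 left out. For VE against ob/ob vehicle with array weights, Cyp2u1 was -0.47 and Cyp2d26 -0.23. Without both arrays that stand apart Cyp2c39 was -0.14, Cyp2u1 -0.39, Cyp2c50 -0.022 and Cyp2d26 -0.42. With 1 array left out Cyp2c39 ranged from -0.16 to 0.44, Cyp2u1 from -0.39 to 0.41, Cyp2c50 from -0.33 to 0.50, Cyp2d26 from -0.42 to 0.26, Cyp2j5 from -0.47 to 0.0067 and Cyp3a11 from -0.68 to 0.015. For VE against wild type, Cyp2j9 was -0.11 after quantile normalization and -0.19 to 0.51 with 1 array left out, Cyp3a11 was -0.62 to 0.078 with 1 left out, and Cyp4f15 was -0.41 with the interquartile range. The cause of these changes was not tested.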
